A study of Mus musculus with 8 samples.

Results

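Gfap, Vim, Nes, Serpina3n, Lcn2, Stat3, Cd109 and Steap4 are 8 genes used to mark reactive astrocytes. They were picked by symbol as 8 of the 21848 genes that each matrix lists, and with earlier results of these data known. Their UMIs (unique molecular identifiers, each counting 1 captured RNA molecule) were followed through every cell class of the injured mouse cortex 6 days after photothrombosis (PT). In PT, light on the skull of a mouse given the dye Rose Bengal clots the vessels beneath and leaves a cortical ischemic lesion. All 8 mice, C57Bl/6J females by the sample labels, received PT over the right sensorimotor cortex and carried a subcutaneous osmotic minipump from 2 days before. The pumps of 4 mice released saline (control) and those of the other 4 released 2.4 U ancrod (2.0 mg/kg) per day, a snake venom enzyme that removes fibrinogen from the blood. The tissue held the lesion and spared cortex around it, without meninges, and no uninjured mouse was included. Each mouse gave 1 library, and mice are named here by group and replicate number. The labels put mouse 4 of each group in batch 2 of injury and sequencing and the others in batch 1. The comparison asks whether fibrinogen depletion altered these genes in astrocytes or in other cells.

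Astrocytes respond to brain injury by enlarging, by building more intermediate filament and by switching on secreted and signalling genes, and at a lesion they form a border around the damaged core. GFAP, vimentin and nestin are the filament proteins of such cells. STAT3 is a transcription factor activated by cytokines of the interleukin 6 family, and it is known as a driver of this response. Serpina3n encodes a secreted serine protease inhibitor, Lcn2 encodes lipocalin 2, a secreted binder of iron-carrying siderophores, Cd109 encodes a membrane-anchored co-receptor that dampens TGF-β signalling, and Steap4 encodes a membrane metalloreductase.

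Of 44072 cells kept, 4091 were astrocyte-like (126 to 1140 per mouse), and 38482 carried another class name. Neither clustering nor naming used any of the 8 genes. All 11 astrocyte markers, such as Aqp4 and Slc1a2, were detected in each mouse, at a summed 23348 to 31362 CPM (the UMIs of a gene or list scaled to a fixed total of the class's UMIs in that mouse, the usual counts per 1e6) compared to 213 to 618 CPM in the other named cells of the same mouse. Microglial markers, 10 of 10 detected, summed to 199 to 237 CPM in the astrocyte-like cells of saline mice and 211 to 254 CPM in those of ancrod mice. Oligodendrocyte precursor markers, 8 of 8 detected and the highest list of another class, summed to 241 to 391 CPM and 227 to 458 CPM. Their part in the levels of the 8 genes was not tested. Libraries held 97861434 to 122758649 UMIs in saline and 126682918 to 142139441 in ancrod mice, without overlap, while the median UMIs of astrocyte-like cells overlapped (7422 to 14090 and 7354 to 11074 per mouse). Of 45940 cell barcodes, 274 (0.596%) occurred in 2 or more libraries.

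The 8 genes are protein-coding, and their positions are given on GRCm39. Gfap spans chr11:102778159-102791738 on the minus strand with 9 exons, and Vim spans chr2:13578738-13587639 on the plus strand with 9 exons. Nes lies at chr3:87878385-87887758 on the plus strand with 4 exons. Serpina3n lies at chr12:104372810-104380597 on the plus strand with 5 exons, next to close relatives of the Serpina3 family, so its reads can be shared with copies. Lcn2 lies at chr2:32274645-32278264 on the minus strand with 6 exons, and Stat3 at chr11:100775924-100830450 on the minus strand with 24 exons. Cd109 lies at chr9:78522735-78623558 on the plus strand with 33 exons, and Steap4 at chr5:8010260-8032214 on the plus strand with 5 exons. The UMIs come from exonic and intronic reads and were primed at transcript 3′ ends, so levels were compared within a gene and never between genes.

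Among the filament genes, Gfap was far higher in astrocyte-like cells than in any other of the 15 ranked classes. Its level in astrocyte-like cells was 2482, 3016, 3812 and 3789 CPM in saline mice 1 to 4, and 3873, 3494, 3084 and 2924 CPM in ancrod mice 1 to 4. All other named cells together held 14.6 CPM on average, a difference of 7.93 ± 0.86 on the log2(CPM + 1) scale (SD, n = 8), in the same direction in 8 of 8 mice. The next class, oligodendrocyte precursor cells, had 247 ± 141 CPM (n = 7), and its range stayed below that of astrocyte-like cells. From there down to neurons and fibroblasts (6.59 ± 3.94 CPM, n = 8), the ranges of neighbouring classes overlapped. After each cell was thinned to 2000 UMIs, a Gfap UMI was found in 77.9% ± 11.5 of astrocyte-like cells and in 2.76% ± 1.70 of microglia, a type that lacks the protein (n = 8, unthinned 88.4% and 11.7%, median depth 9783 and 13867 UMIs). Shares in endothelial cells, fibroblasts, monocytes, inflammatory macrophages and neurons were 1.22% to 2.79%, near or below that of microglia, and are not read as expression. Shares above that of microglia were found in dendritic cells (3.44%), T or NK cells (4.06%), pericytes (4.61%), smooth muscle cells (4.97%), border-associated macrophages (5.12%) and neutrophils (6.98%), and in each the range between mice overlapped that of microglia (0.874% to 6.46%). Oligodendrocyte precursor cells (19.5%, 8.70% to 30.8%, n = 7) lay above it.

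Vim was high in astrocyte-like cells without being theirs alone. It measured 2207, 3860, 3890 and 4060 CPM in saline mice 1 to 4, and 5435, 2493, 3910 and 2237 CPM in ancrod mice 1 to 4. Vascular smooth muscle cells had 3864 ± 807 CPM and astrocyte-like cells 3511 ± 1121 CPM (n = 8 each), with overlapping ranges, followed by monocytes at 2491 ± 448 CPM. Microglia (101 ± 27.2 CPM) were next to last, overlapping neuroblasts, and neurons (14.5 ± 7.75 CPM, n = 6) lay below every other class. Against all other named cells, at 917 CPM, astrocyte-like cells were higher by 1.89 ± 0.53 on the log2 scale, in 8 of 8 mice.

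Nes, which encodes the filament protein of neural progenitors and growing vessels, was highest in the vessel wall when astrocyte-like cells were taken as 1 class. Pericytes had 138 ± 26.1 CPM, smooth muscle cells 130 ± 36.1 CPM, endothelial cells 105 ± 13.7 CPM and astrocyte-like cells 72.0 ± 30.2 CPM (n = 8 each), and each range overlapped the next. Below these came a break, since oligodendrocyte precursor cells reached only 20.3 ± 8.84 CPM. Within astrocyte-like cells the level was 58.9, 54.0, 98.0 and 46.2 CPM in saline mice 1 to 4, and 129, 48.5, 88.9 and 52.1 CPM in ancrod mice 1 to 4. The difference from all other named cells (25.3 CPM) was 1.42 ± 0.80 on the log2 scale, in 8 of 8 mice.

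Serpina3n, the first of the secreted products, was highest in glial classes. Oligodendrocyte precursor cells had 2730 ± 964 CPM (n = 7) and astrocyte-like cells 267 ± 90.2 CPM (n = 8), and neither range overlapped the class below it. The next class was neuroblasts at 11.7 ± 20.3 CPM (n = 3). In the oligodendrocyte precursor cells the level was 3661, 3626, 2442 and 2649 CPM in saline mice 1 to 4, and 2879, 3044 and 807 CPM in ancrod mice 1, 3 and 4. Ancrod mouse 2 had 5 such cells and was left out of every value of that class. This class, 162 cells in all, carried its own markers (Pdgfra 630 ± 204 CPM, Lhfpl3 6151 ± 1008 CPM) and also Aqp4 of astrocytes at 426 ± 377 CPM (n = 7), whose part in the Serpina3n level was not tested. In astrocyte-like cells Serpina3n measured 138, 252, 304 and 375 CPM in saline mice 1 to 4, and 397, 241, 257 and 171 CPM in ancrod mice 1 to 4. The difference from all other named cells, at 15.2 CPM, was 4.25 ± 1.14 on the log2 scale, in 8 of 8 mice. After thinning to 2000 UMIs, 43.1% ± 13.9 of oligodendrocyte precursor cells, 29.4% ± 9.56 of astrocyte-like cells and 0.215% ± 0.151 of microglia held a UMI (unthinned 60.0%, 55.4% and 1.02%, at median depths of 17794, 9783 and 13867 UMIs).

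Lcn2, the other secreted product, was led by neutrophils, which store lipocalin 2 in their granules. Neutrophils had 2188 ± 1483 CPM, endothelial cells 208 ± 92.4 CPM, astrocyte-like cells 172 ± 122 CPM and fibroblasts 24.9 ± 19.5 CPM (n = 8 each), and every range overlapped its neighbour. No Lcn2 UMI was found in oligodendrocyte precursor cells or smooth muscle cells, where 3 UMIs, the most that a count of 0 allows, would be 4.16 to 14.4 CPM in a mouse, a floor that covers counting error only. Astrocyte-like cells were above all other named cells, at 58.8 CPM, by 1.37 ± 0.72 on the log2 scale, in 8 of 8 mice. After thinning, 54.6% ± 19.9 of neutrophils, 11.5% ± 7.61 of astrocyte-like cells and 9.11% ± 3.91 of endothelial cells held a UMI, compared to 0.246% ± 0.133 of microglia (unthinned 62.5%, 20.9%, 20.3% and 1.30%, at median depths of 4889, 9783, 11379 and 13867 UMIs).

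The mice differed widely in Lcn2, with the same extremes in 3 classes. In astrocyte-like cells the gene measured 27.8, 217, 148 and 306 CPM in saline mice 1 to 4, and 376, 78.2, 164 and 62.7 CPM in ancrod mice 1 to 4. In endothelial cells it measured 93.5, 290, 207 and 294 CPM in saline mice, and 338, 181, 163 and 94.5 CPM in ancrod mice. In neutrophils it measured 198, 2826, 2202 and 3657 CPM in saline mice, and 4724, 1116, 1313 and 1465 CPM in ancrod mice. Saline mouse 1 was lowest and ancrod mouse 1 highest in all 3 classes, although saline mouse 1 had only 12 neutrophils with 9 Lcn2 UMIs. Free RNA, taken from droplets with at most 100 UMIs, followed the same extremes, at 15.3 CPM in saline mouse 1 and 106 CPM in ancrod mouse 1. The part of free RNA in the order of the mice was not tested.

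Stat3, the signalling gene, was lower in astrocyte-like cells than in most classes. Its level in astrocyte-like cells was 164, 282, 236 and 212 CPM in saline mice 1 to 4, and 261, 190, 175 and 200 CPM in ancrod mice 1 to 4. All other named cells held 401 CPM on average, and astrocyte-like cells were lower by −0.92 ± 0.22 on the log2 scale, with none of 8 mice higher. T or NK cells (608 ± 101 CPM), smooth muscle cells (526 ± 74.8 CPM) and microglia (479 ± 21.3 CPM) led, with overlapping ranges. Astrocyte-like cells (215 ± 41.6 CPM) were 13th of 15 classes, and only pericytes (206 ± 38.9 CPM) and neurons (43.7 ± 23.2 CPM) came after them.

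The membrane genes were widely spread over the 15 ranked classes, which leave out ependymal cells for their small number. Cd109 was 35.5 ± 53.0 CPM in oligodendrocyte precursor cells (n = 7), 29.9 ± 13.9 CPM in fibroblasts, 21.9 ± 10.7 CPM in astrocyte-like cells and 19.2 ± 10.8 CPM in monocytes (n = 8 each), all overlapping, and the first mean rested on ancrod mouse 4, at 153 CPM, with the other mice at 3.21 to 29.8 CPM. Astrocyte-like cells held 13.9, 16.9, 29.7 and 20.0 CPM in saline mice 1 to 4, and 44.9, 19.4, 18.8 and 11.6 CPM in ancrod mice 1 to 4. The difference from all other named cells (6.62 CPM) was 1.62 ± 0.99 on the log2 scale, in 7 of 8 mice.

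Steap4 was highest in neutrophils (105 ± 61.0 CPM), fibroblasts (62.3 ± 25.1 CPM) and pericytes (53.0 ± 12.9 CPM), which overlapped one another. Next came smooth muscle cells at 11.7 ± 10.8 CPM and astrocyte-like cells at 11.2 ± 9.02 CPM (n = 8 each), whose ranges (0 to 36.4 CPM and 2.35 to 31.1 CPM) overlapped that of fibroblasts (19.0 to 95.7 CPM) but not those of neutrophils and pericytes. In astrocyte-like cells it measured 2.35, 15.3, 11.2 and 4.99 CPM in saline mice 1 to 4, and 31.1, 7.82, 10.7 and 5.74 CPM in ancrod mice 1 to 4. Against all other named cells (10.0 CPM) the difference was −0.04 ± 0.93 on the log2 scale, with 3 of 8 mice higher.

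Together, 6 of the 8 genes were higher in astrocyte-like cells than in all other named cells, Stat3 was lower, and Steap4 did not differ beyond its spread. The exact sign-flip test over mice (two-sided, 256 arrangements) gave p = 0.0078 for Gfap, Vim, Nes, Serpina3n, Lcn2 and Stat3, the smallest it can give, p = 0.016 for Cd109 and p = 0.89 for Steap4. The classes were drawn from other genes of the same cells, so these p-values describe how steady the difference was over mice and are no independent test. Of 12558 genes, 42.4% were higher and 29.1% lower in astrocyte-like cells in all 8 mice, which is the background for 5 genes higher and 1 lower in all 8. Nes did not pass after each cell was thinned to 2000 UMIs (0.54 on the log2 scale), and Steap4 passed with doublets kept (0.83).

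**Figure D1:**
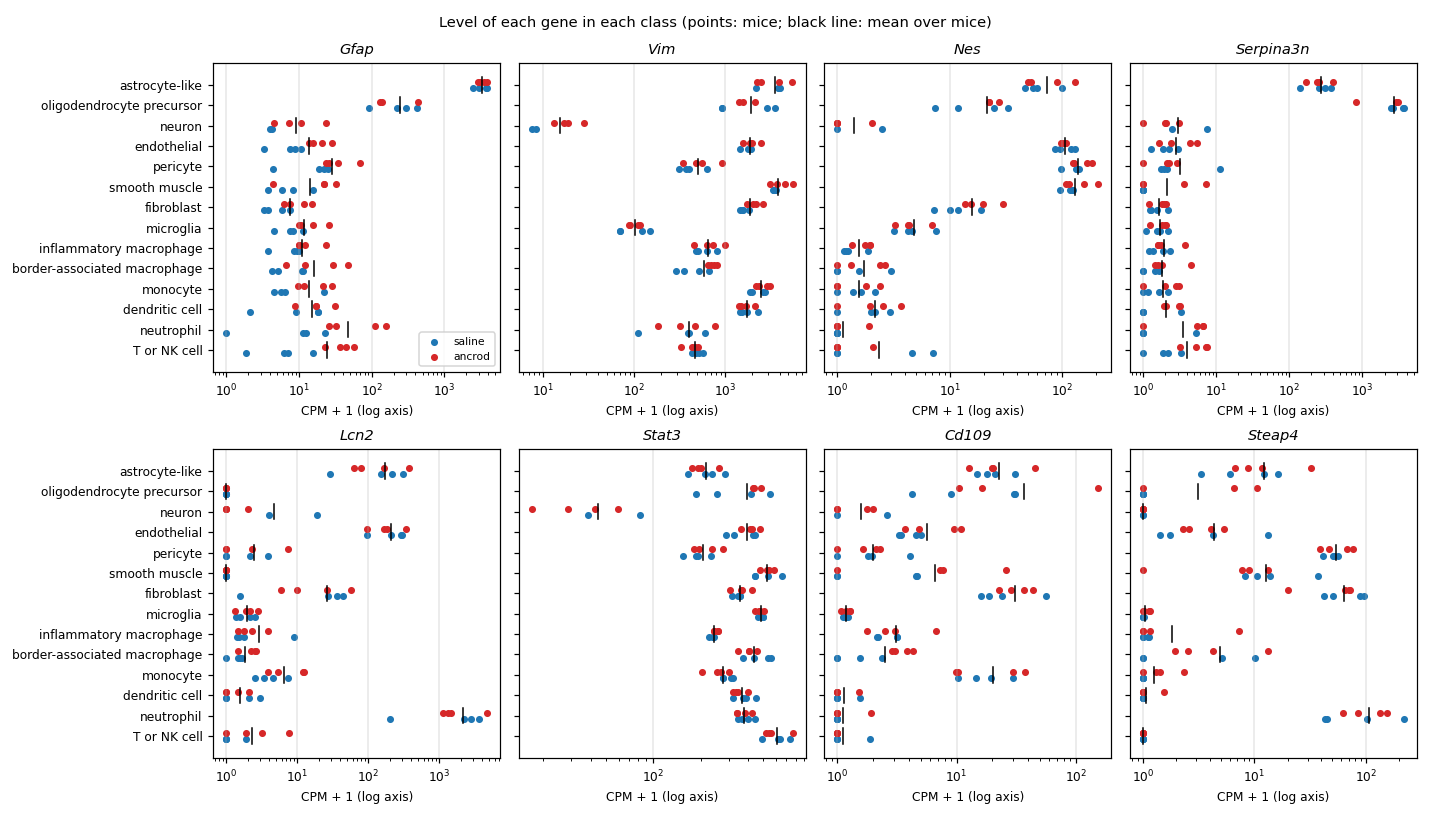
Level of each gene by cell class, in CPM plus 1 on a log axis, with 1 point per mouse with at least 10 cells of the class (blue saline, red ancrod) and a black line at the mean over mice. Gfap is separated from all other classes in astrocyte-like cells, Serpina3n is highest in oligodendrocyte precursor cells, Lcn2 and Steap4 in neutrophils, and Stat3 is spread over nearly all classes.

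For each gene, the 3 genes whose mean log2(CPM + 1) over the 15 classes correlated best with it were looked up among 8861 genes, as a description. Gfap followed Aldoc, Mlc1 and Ntsr2 (Pearson r 0.988, 0.987 and 0.975), of which Aldoc and Ntsr2 are markers used to name astrocytes. Serpina3n followed Olig1, Plpp4 and Car8 (0.983, 0.978 and 0.971), of which Olig1 is a marker used to name oligodendrocyte precursor cells. Nes followed Emp2, Sox13 and Ttc23 (0.968, 0.965 and 0.952). Vim was nearest to Atp5h, Scp2 and Ndufb11 (0.924, 0.905 and 0.904), and Stat3 to Parp9, Brd2 and Ubxn1 (0.910, 0.894 and 0.887). Steap4 was nearest to Gpc3, Rabac1 and Cped1 (0.880, 0.837 and 0.813), Cd109 to Uqcc2, Psmc5 and Tmem147 (0.870, 0.838 and 0.820), and Lcn2 to Upp1, Wbp1l and Rdh12 (0.846, 0.768 and 0.767). The points share libraries and depth.

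Within the astrocyte-like class, 1068 cells were named reactive (52 to 249 per mouse) and 2359 homeostatic (64 to 617 per mouse) from other markers, such as Cd44, Timp1 and Osmr for reactive and Gpc5, Slc7a10 and Kcnj10 for homeostatic cells. The 8 genes were left out of this clustering as well, but other genes of the same cells defined the groups, so the values are given without a test. Among all genes tested, 30.3% were higher and 26.9% lower in reactive cells in all 8 mice. Of the 8 genes, 7 were higher in reactive cells in all 8 mice, with Serpina3n the exception (higher in 5).

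The filament genes separated the groups without overlap. Gfap was 2242 ± 596 CPM in homeostatic and 5051 ± 623 CPM in reactive cells (SD, n = 8), 2.25 times higher. In homeostatic cells it measured 1876, 1279, 2557 and 2099 CPM in saline mice 1 to 4 and 3298, 2600, 2227 and 2000 CPM in ancrod mice 1 to 4. In reactive cells it measured 4523, 5633, 4992 and 5961 CPM in saline mice and 4283, 5292, 4339 and 5387 CPM in ancrod mice. The lowest reactive value thus lay above the highest homeostatic one. Homeostatic cells were not alike in Gfap, and 2 of their 7 sub-clusters (numbered groups of like cells), 7 and 11 with 239 and 130 of the 2359 cells, held 5674 and 5700 CPM, compared to 672 to 2021 CPM in the other 5. Without both, homeostatic cells held 1442 ± 515 CPM and reactive cells were 3.50 times higher. The 2 were chosen after seeing the data, as those with the most Gfap, so leaving them out raises this ratio by construction and is no test. After thinning, 68.7% ± 15.8 of homeostatic and 93.5% ± 2.78 of reactive cells had a Gfap UMI (unthinned 83.8% and 97.4%).

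Vim separated them more widely, from 686 ± 233 CPM in homeostatic to 7976 ± 869 CPM in reactive cells, 11.6 times higher. Homeostatic cells held 602, 426, 709 and 759 CPM in saline mice 1 to 4 and 1162, 603, 779 and 449 CPM in ancrod mice 1 to 4. Reactive cells held 7598, 9312, 6941 and 8391 CPM in saline mice and 8472, 7152, 8739 and 7199 CPM in ancrod mice. Nes was low in homeostatic cells, at 4.12 ± 2.89 CPM in homeostatic compared to 183 ± 46.2 CPM in reactive cells, 44.4 times higher. Its reactive level was 243, 137, 190 and 103 CPM in saline mice 1 to 4 and 215, 164, 219 and 194 CPM in ancrod mice 1 to 4. Homeostatic cells ranged from 1.59 CPM in saline mouse 2 to 10.7 CPM in ancrod mouse 1.

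Serpina3n was close in both classes as named, at 251 ± 112 CPM in homeostatic and 287 ± 89.1 CPM in reactive cells, and reactive cells were higher in 5 of 8 mice. Homeostatic cells held 136, 175, 304 and 307 CPM in saline mice 1 to 4 and 464, 234, 270 and 120 CPM in ancrod mice 1 to 4. Reactive cells held 146, 349, 306 and 424 CPM in saline mice and 346, 230, 210 and 288 CPM in ancrod mice. The spread between mice was thus larger than the difference between the classes. The homeostatic value rested in part on sub-clusters 7 and 11, at 528 and 1232 CPM, compared to 102 to 183 CPM in the other 5. Without sub-cluster 7, homeostatic cells held 194 ± 106 CPM, with reactive cells higher in 7 of 8 mice. Without both they held 160 ± 75.3 CPM, with reactive cells 1.79 times higher and higher in 8 of 8 mice, though the ranges overlapped. Both sub-clusters hold more Serpina3n than the other 5, so leaving them out raises the ratio by construction and is no test.

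Lcn2 was 5.56 times higher in reactive cells, at 333 ± 164 CPM compared to 59.9 ± 67.1 CPM, though the ranges overlapped. Without sub-clusters 7 and 11, which held the most Lcn2 of the homeostatic sub-clusters, it was 16.8 times higher, a rise that this choice brings by construction. Homeostatic cells held 7.54, 23.9, 23.5 and 137 CPM in saline mice 1 to 4 and 181, 17.2, 85.7 and 4.02 CPM in ancrod mice 1 to 4. Reactive cells held 96.4, 526, 269 and 517 CPM in saline mice and 514, 222, 291 and 233 CPM in ancrod mice. Every mouse had more in its reactive cells, and the homeostatic cells of saline mouse 4 and ancrod mouse 1 exceeded the reactive cells of saline mouse 1.

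Stat3 differed least of the 7, at 170 ± 23.8 CPM in homeostatic and 295 ± 86.4 CPM in reactive cells, 1.74 times higher. Reactive cells held 269, 490, 295 and 241 CPM in saline mice 1 to 4 and 303, 240, 209 and 315 CPM in ancrod mice 1 to 4. After thinning, the share of cells with a Stat3 UMI was 26.9% ± 5.67 in homeostatic and 27.5% ± 5.50 in reactive cells (unthinned 72.6% and 58.7%), so no order is read from the share. Reactive cells were uneven, and 2 of their 4 sub-clusters (3 and 6, 522 and 281 cells) lay below the homeostatic mean.

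Cd109 was 11.1 times higher in reactive cells, at 49.2 ± 12.1 CPM compared to 4.43 ± 2.22 CPM, and the ranges did not overlap. Reactive cells held 49.1, 35.3, 55.1 and 40.9 CPM in saline mice 1 to 4 and 71.1, 59.8, 40.8 and 41.1 CPM in ancrod mice 1 to 4. Steap4 was 21.6 ± 13.1 CPM in reactive and 4.06 ± 5.07 CPM in homeostatic cells, 5.32 times higher, with overlapping ranges. Reactive cells held 9.52, 39.2, 20.5 and 8.62 CPM in saline mice and 43.8, 20.0, 14.2 and 16.9 CPM in ancrod mice. In homeostatic cells Steap4 ran from 0.232 CPM in saline mouse 1 to 14.6 CPM in ancrod mouse 1.

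**Figure D2:**
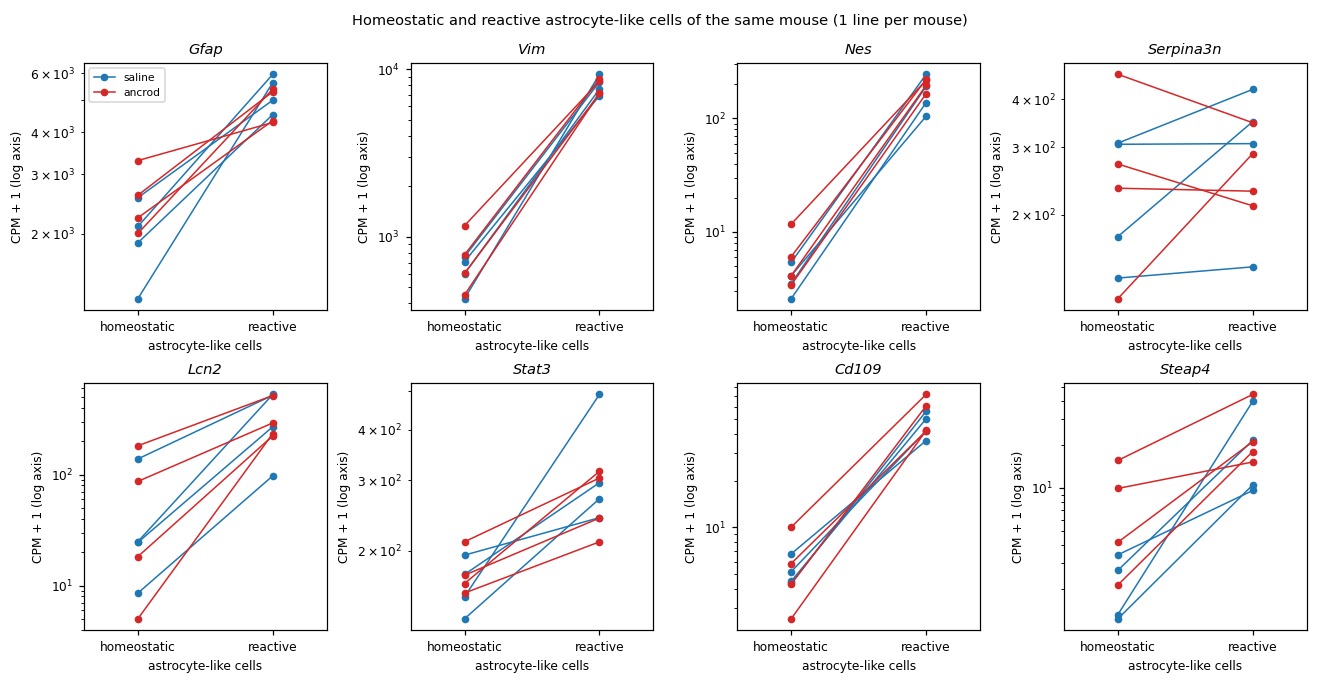
Level of each gene in the homeostatic and the reactive astrocyte-like cells of each mouse, in CPM plus 1 on a log axis, with 1 line per mouse (blue saline, red ancrod). All lines climb except for Serpina3n, where 5 of 8 do, and for Gfap, Vim, Nes and Cd109 the groups of points do not overlap.

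A cell held on average only some of the 8 genes. Thinned to 2000 UMIs, a homeostatic cell had a UMI of 1.74 ± 0.50 of the 8 genes and a reactive cell of 2.99 ± 0.15 (SD, n = 8 mice). At least 3 of the genes were found in 28.3% ± 15.1 of homeostatic and 66.0% ± 4.82 of reactive cells, and none in 20.5% ± 12.2 and 0.652% ± 0.756. Among reactive cells, 8.34% of those with a Serpina3n UMI had a Nes UMI, compared to 18.8% of those without one (means of 8 mice, lower in 8 of 8). This is a description of sparse counts and was not tested.

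The sub-clusters showed that the 8 genes did not peak together. The values are CPM of all cells of a sub-cluster pooled over mice, and sub-clusters 11 and 12 each reached 10 cells in only 4 mice. Gfap, Stat3 and Steap4 were highest in sub-cluster 12, 93 reactive cells led by Myoc, Fxyd6 and the complement gene C3, at 10715, 620 and 106 CPM. The mice of sub-cluster 12 overlapped those of other sub-clusters for all 3 genes. For Gfap they ranged from 8507 to 12355 CPM, above reactive sub-cluster 3 (6145 CPM, 3996 to 7697 CPM) but not clear of homeostatic sub-cluster 7 (5674 CPM, 4569 to 8935 CPM). Vim, Nes and Cd109 were highest in sub-cluster 6, 281 reactive cells led by Top2a and other genes of cell division, at 8946, 248 and 76.5 CPM. Vim in that sub-cluster (7493 to 11305 CPM between mice) overlapped sub-cluster 9 (8788 CPM, 6427 to 10000 CPM), and so did Nes and Cd109 (200 and 49.9 CPM in sub-cluster 9). That dividing sub-cluster held the lowest Serpina3n of all, at 92.7 CPM, and a Gfap of 2230 CPM, below the other 3 reactive sub-clusters (5182 to 10715 CPM). Stat3 was far from even among the reactive cells. It was 128 CPM in sub-cluster 3 (522 cells) and 138 CPM in sub-cluster 6 (281 cells), both below the homeostatic mean over mice of 170 CPM, and 368 CPM in sub-cluster 9 (172 cells) and 620 CPM in sub-cluster 12 (93 cells). Homeostatic sub-clusters ran from 111 to 300 CPM. The median depth was 4768 and 7271 UMIs in sub-clusters 3 and 6, and 50250 and 22483 UMIs in sub-clusters 9 and 12, and the part of depth was not tested.

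Serpina3n and Lcn2 were highest in sub-cluster 11, at 1232 and 578 CPM. For Lcn2 the mice ranged from 330 to 1175 CPM there and overlapped the next, sub-cluster 3 (394 CPM, 103 to 1014 CPM). Its 130 cells, led by Trf and Chil1, were named homeostatic, and at a median of 4628 UMIs they were shallow. Another homeostatic sub-cluster, 7, with 239 cells, was led by Grin2c, the homeostatic marker Gpc5 and Etnppl but also by the neuronal genes Kif5a, Nrgn and Camk2a. It stayed in the class and held 5674 CPM of Gfap and 528 CPM of Serpina3n, and sub-cluster 11 held 5700 CPM of Gfap, so neither was low in these genes. Both kept Nes low, at 9.21 and 9.23 CPM. The lowest values of Gfap, Vim, Nes, Stat3, Cd109 and Steap4 were all in homeostatic sub-cluster 2 (537 cells), at 672, 119, 0.729, 111, 1.02 and 0 CPM. Homeostatic sub-cluster 8, led by interferon response genes such as Rsad2 and Ifit3b, had the second highest Steap4, at 17.2 CPM, and ranged from 0 to 90.3 CPM between mice. Sub-clusters 0 (580 cells of low UMI count) and 13 (84 cells led by interferon response genes) stayed unnamed, with Gfap at 3415 and 4241 CPM.

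**Figure D3:**
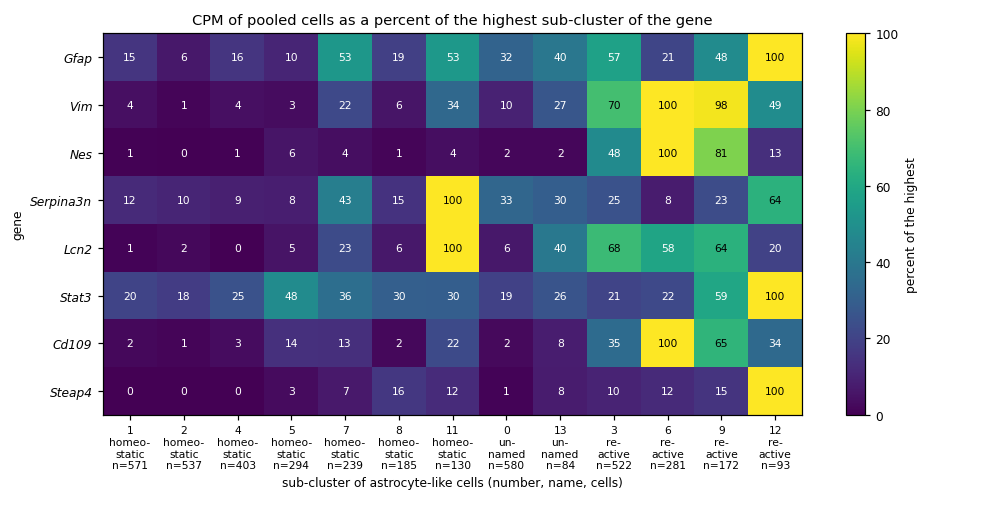
Heat map of the 8 genes over the 13 sub-clusters of astrocyte-like cells, colored and numbered by percent of the gene's highest sub-cluster, from CPM pooled over mice. Sub-cluster 12 is the peak of Gfap, Stat3 and Steap4, sub-cluster 6 of Vim, Nes and Cd109, and the homeostatic sub-cluster 11 of Serpina3n and Lcn2.

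The region upstream of the transcription starts was searched for the STAT motif TTCNNNGAA and the AP-1 motif TGANTCA in the RefSeq promoters of GRCm38.p6, on both strands (each motif reads the same on both). Promoters of 7 of the 8 genes were matched, all but Cd109. Within 250 bases upstream, the STAT motif was found in 1 of 7 (Steap4) and the AP-1 motif in 0 of 7, compared to 7.02% and 6.75% of 32851 promoters of the same length. The Steap4 match is shown as the only one found. It lies 116 to 108 bases before the start, with the motif in capitals, at chr5:7960336-7960384 of GRCm38.p6 on the plus strand.
Steap4: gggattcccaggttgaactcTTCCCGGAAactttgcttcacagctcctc
A match describes letters only and is not evidence of binding.

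Between treatments, edgeR called no gene in astrocyte-like cells. Of 12558 genes tested on UMIs summed per mouse, the quasi-likelihood test of edgeR, adjusted by Benjamini and Hochberg, called 0.0% between ancrod and saline (0 genes, with 466, or 3.71%, at an unadjusted p under 0.05), and none of the 8 was called. DESeq2 called 1 gene, the adhesion molecule Vcam1 (0.67 ± 0.14, adjusted p = 0.032), named after its values were seen and called under no other alternative in this class. In counts simulated from these libraries, the same test recovered 91% of 100 genes changed by 1 and 100% of 100 genes changed by 2 on the log2 scale, with 13 false calls among 12627 genes. Every simulated gene had the same spread between mice (dispersion 0.0279), and the changed genes were drawn from those with higher counts. Real genes differ in spread, so this recovery is not a measure of what could be found for the 8 genes.

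Gfap and Vim were close to equal between the groups. Gfap averaged 3275 ± 645 CPM in saline and 3344 ± 427 CPM in ancrod mice, a log2 fold change of 0.03 ± 0.16 (SE), and Vim 3504 ± 869 and 3519 ± 1474 CPM, a log2 fold change of 0.0056 ± 0.28. Serpina3n was at 0.0018 ± 0.29 and Stat3 at −0.11 ± 0.16. Nes (0.32 ± 0.32) and Cd109 (0.29 ± 0.36) were within about 1 SE of 0. The widest errors were those of Lcn2 (−0.04 ± 0.66) and Steap4 (0.79 ± 0.62). A change of 1 on the log2 scale could have gone uncalled for any of the 8. Plat, the 1 gene that edgeR called in homeostatic cells, passed narrowly at 0.87 ± 0.12 (edgeR adjusted p = 0.046), and the errors here were 0.16 or more. The adjusted p of each gene was 0.9994, and the values by mouse given above overlapped between groups for all 8. Oligodendrocyte markers in these cells, 7 of 7 detected, summed to 39.3 to 44.6 CPM in saline and 50.0 to 58.3 CPM in ancrod mice without overlap, and their part in the comparison was not tested. The marker lists of all other classes overlapped between the groups in these cells. Of the 8 genes, 6 had a log2 fold change above 0, compared to 48.7% of all genes tested, with a median of 0.02, compared to −0.0049 over all genes.

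Individual mice differed more than the groups. Ancrod mouse 1 had the highest value of 7 of the 8 genes in astrocyte-like cells, Stat3 being the exception. Saline mouse 1 had the lowest value of 6 of the 8, all but Nes and Cd109. The reactive share of astrocyte-like cells went with them, at 15.4% in saline mouse 1 and 47.9% in ancrod mouse 1. It was 25.9%, 41.3% and 27.0% in saline mice 2 to 4, and 21.8%, 30.2% and 20.6% in ancrod mice 2 to 4. Without saline mouse 1, the log2 fold changes of Gfap, Vim and Serpina3n were −0.06, −0.15 and −0.21, and without ancrod mouse 1 they were −0.03, −0.26 and −0.23. Without ancrod mouse 1, Steap4 was at 0.07, Nes at 0.02, Cd109 at −0.16 and Lcn2 at −0.75.

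The reactive share averaged 27.4% ± 10.6 in saline and 30.1% ± 12.6 in ancrod mice, a difference of 2.75 percentage points (exact permutation test, two-sided, 70 arrangements, p = 0.69, smallest possible 0.029). The difference was 5.78 points in batch 1 and −6.33 points in batch 2, where each group is 1 mouse. It turned to −1.23 points without saline mouse 1 and to −3.17 points without ancrod mouse 1. The share is of all astrocyte-like cells, with the unnamed sub-clusters 0 and 13 among them. These held 149 and 22 cells in saline and 431 and 62 cells in ancrod mice, and their part in the difference was not tested. Astrocyte-like cells made up 11.7%, 7.19%, 2.11% and 6.50% of kept cells in saline mice 1 to 4, and 7.60%, 20.2%, 10.4% and 8.56% in ancrod mice 1 to 4, a difference of 4.83 points (exact permutation test, p = 0.23; 5.76 in batch 1 and 2.06 in batch 2). With 1 mouse left out, this difference was 1.99 to 6.44 points.

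**Figure D4:**
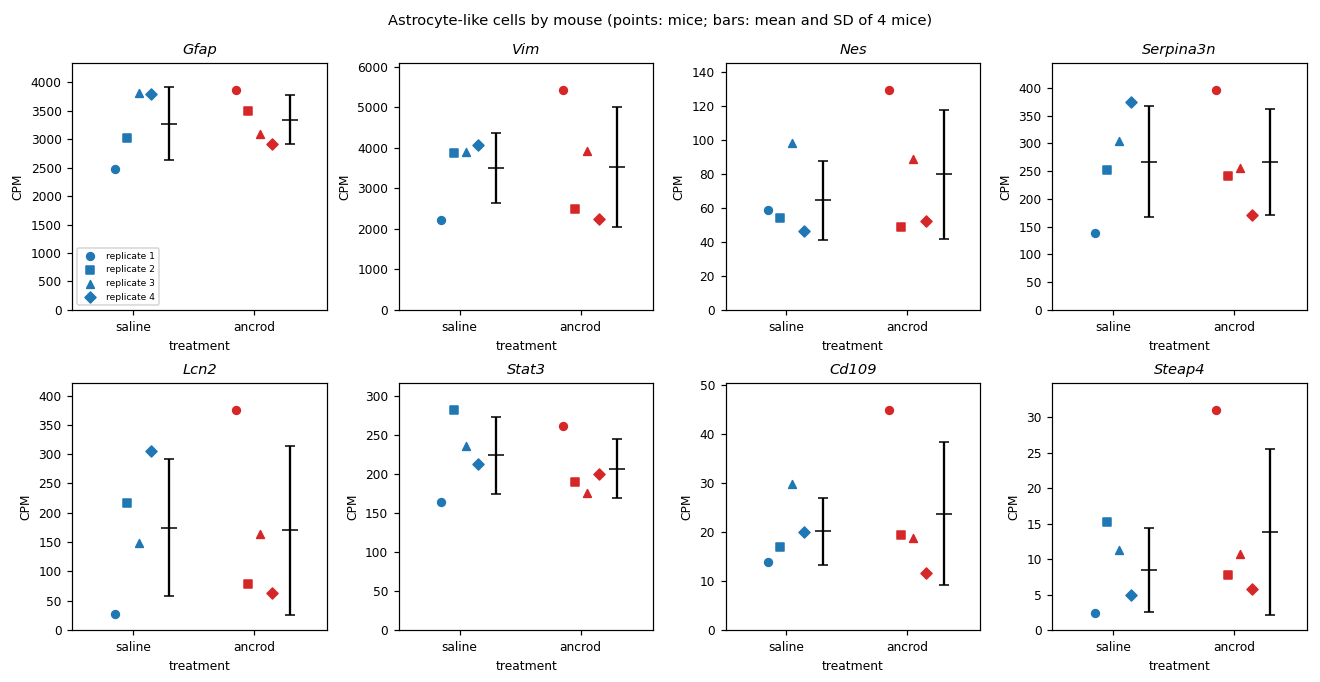
Level of each gene in astrocyte-like cells of each mouse in CPM, by treatment, with marker shapes for replicate numbers and black bars for the mean and SD of 4 mice. The groups overlap for all 8 genes, ancrod replicate 1 is the highest point for 7 of them, and saline replicate 1 the lowest for 6.

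None of the 8 genes was called when the class was split. In homeostatic cells, 7 of the 8 genes passed the filter on low counts (Steap4 did not), and all 7 log2 fold changes were above 0, from 0.05 (Cd109) to 0.56 (Lcn2), with a median of 0.28 compared to −0.0023 over all genes, of which 49.4% were above 0. The make-up of the class differed between mice. Sub-clusters 7 and 11, high in Gfap, Serpina3n and Lcn2, held 6.28% to 17.2% of homeostatic cells in saline and 10.6% to 44.0% in ancrod mice, with the highest share in ancrod mouse 1, and sub-cluster 2, low in most of the 8 genes, held 20.6% to 35.6% and 15.1% to 25.9%. Without sub-clusters 7 and 11, a choice made after seeing the data, Nes and Cd109 no longer passed the filter, Gfap was at 0.37, Vim at 0.30, Serpina3n at 0.15, Stat3 at 0.26 and Lcn2 at 2.68, and none was called. The neuronal gene Kif5a, which DESeq2 called, was at 10.5 to 21.8 CPM in saline and 21.1 to 55.8 CPM in ancrod mice, and 8 neuron markers, all detected, summed to 18.4 to 29.5 CPM and 20.3 to 71.9 CPM. Their part in these values was not tested. In the whole homeostatic class none of the 7 was called (lowest adjusted p 0.90, Gfap at 0.39 ± 0.20), compared to 0.00879% of 11372 genes, which is 1 gene. That gene, named after its values were seen, was Plat, which encodes tissue plasminogen activator, at 18.4 to 19.8 CPM in saline and 31.3 to 38.5 CPM in ancrod mice (log2 fold change 0.87 ± 0.12, adjusted p = 0.046, also called in 6 of 21 alternatives, but in only 1 of the 8 fits without a mouse and not without sub-cluster 7). The 7 genes share cells and mice, and ancrod mouse 1 had the highest value of each among the 8 mice. Without that mouse, Vim, Serpina3n, Lcn2 and Cd109 were at −0.01, −0.10, −0.43 and −0.35.

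In reactive cells, all 8 genes were tested and 3 had a log2 fold change above 0, compared to 50.9% of all genes, with a median of −0.09. None was called, and 0.0% of 11263 genes were. DESeq2 called 9 genes here, none of them among the 8, compared to 5 in homeostatic and 1 in all astrocyte-like cells. The 9 included Vcam1, at 178 to 286 CPM in saline and 416 to 521 CPM in ancrod mice (0.96 ± 0.14, adjusted p = 1.3e-07), which was also called under 2 other alternatives and was named after its values were seen. Kcnj10, a homeostatic marker used for naming, was the only one lower with ancrod, at 499 to 654 CPM in saline and 393 to 418 CPM in ancrod mice (−0.54 ± 0.11, DESeq2 adjusted p = 0.0019). It was called under no other alternative, and its part in the make-up of the class was not tested. Gfap was −0.13 ± 0.13, Vim −0.04 ± 0.12, Serpina3n −0.20 ± 0.26, Lcn2 −0.18 ± 0.41 and Stat3 −0.29 ± 0.21. With 1 mouse left out, Stat3 ran from −0.41 to −0.0076. Nes was 0.23 ± 0.21, Cd109 0.26 ± 0.18 and Steap4 0.34 ± 0.46, and each adjusted p was 0.9998. Sub-cluster 3, low in Stat3, held 39.4% to 45.2% of reactive cells in saline and 45.4% to 61.8% in ancrod mice, and sub-cluster 9, higher in Stat3, held 17.2% to 25.3% and 11.6% to 15.7%, both without overlap, while sub-cluster 12 overlapped (9.09% to 13.5% and 4.86% to 18.6%). The part of this make-up in the values was not tested. In these reactive cells the summed fibroblast markers did not overlap between groups (9.45 to 34.0 CPM in saline, 40.1 to 199 CPM in ancrod mice, 7 of 7 detected), and their part in these values was not tested. Of the marker lists of all other classes compared in this way, only those of fibroblasts and erythrocytes did not overlap here.

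Whether ancrod acted differently on reactive and homeostatic cells was tested with the difference within each mouse. For Gfap, reactive minus homeostatic was 1.47 ± 0.50 in saline and 0.95 ± 0.43 in ancrod mice on the log2(CPM + 1) scale (SD, n = 4), which differed by −0.52 (exact permutation test, p = 0.17). Steap4 differed by −1.24 (p = 0.26), Stat3 by −0.35 (p = 0.34), and the other 5 genes by −0.28 to 0.23 (p from 0.51 to 0.80, exact permutation tests). None of the 8 passed at an unadjusted p of 0.05, and with 70 arrangements the smallest p is 0.029, so 1 gene alone could not have passed after adjustment over the 8 (lowest adjusted p here 0.69).

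Beyond astrocytes, the 8 genes gave 57 tests in 12 other classes with at least 10 cells in 3 or more mice of each group. None was called by edgeR, and 11 had an unadjusted p under 0.05, compared to 6.74% of the tests of all genes in these classes. Over all genes, 18 of 110698 tests in these classes were called. These were 0.155% of genes in pericytes, 0.0326% in border-associated macrophages, 0.00778% in fibroblasts and 0.0% in the other 9 classes. Away from Gfap, the unadjusted passes were Vim in border-associated macrophages (0.66 ± 0.20) and fibroblasts (0.43 ± 0.14), Cd109 in endothelial cells (1.03 ± 0.40) and Lcn2 in monocytes (1.20 ± 0.49), with adjusted p of 0.61, 0.29, 0.50 and 0.79.

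Gfap made up the other 7 of the 11. It was tested in 10 classes, had a log2 fold change above 0 in 9, and had an unadjusted p under 0.05 in 7, all above 0, though at low levels. Of all genes tested in those 10 classes, 3.65% had such a p and a log2 fold change above 0. The 10 tests share mice and the same free RNA. In T or NK cells it ranged from 0.877 to 14.6 CPM (1 to 11 UMIs) in saline mice and from 21.5 to 56.9 CPM (20 to 53 UMIs) in ancrod mice. The groups did not overlap, as for 1.28% of genes there with ancrod higher, and the log2 fold change was 2.62 ± 0.47 (edgeR adjusted p = 0.53). In endothelial cells it ranged from 2.34 to 9.54 CPM in saline and from 12.5 to 27.9 CPM in ancrod mice, again without overlap (1.54 ± 0.37, adjusted p = 0.50), as for 2.54% of genes there. In the other 8 classes the groups overlapped, with microglia at 3.49 to 10.2 CPM and 9.09 to 25.2 CPM, and pericytes at 3.40 to 24.4 CPM and 22.3 to 68.8 CPM. The share of genes without overlap and higher with ancrod was 0.805% in microglia, 1.34% in inflammatory macrophages, 1.88% in dendritic cells, 1.91% in oligodendrocyte precursor cells, 1.95% in pericytes, 1.97% in border-associated macrophages, 2.4% in monocytes and 3.4% in fibroblasts.

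The Gfap of free RNA, as CPM of the free pool and not of a class, was 447, 434, 248 and 454 CPM in saline mice 1 to 4, and 568, 981, 438 and 339 CPM in ancrod mice 1 to 4. Only the free share of a class's UMIs carries that pool, so the 2 measures cannot be set side by side. This share was put at 1.02% to 3.34% in T or NK cells and 1.42% to 2.39% in microglia. It was put higher in endothelial cells, at 2.15% to 4.42% in saline and 2.45% to 4.55% in ancrod mice. In pericytes it was put at 2.34% to 6.00% over all mice. Free RNA made up 4.57% to 5.80% of the UMIs of saline and 2.90% to 4.65% of those of ancrod libraries. Ancrod mouse 2, with the most free Gfap, also had the most astrocyte-like cells. When the expected free RNA was subtracted, the log2 fold change was 3.96 in T or NK cells (adjusted p = 0.73) and 1.84 in microglia, both above the values without subtraction (2.62 and 1.13). It was 1.35 in border-associated macrophages, 0.84 in dendritic cells, 0.50 in inflammatory macrophages and 0.42 in monocytes, all below those without subtraction (1.54, 0.86, 0.90 and 0.88), and −0.13 in oligodendrocyte precursor cells as before. None was called, and Gfap no longer passed the filter on low counts in endothelial cells, fibroblasts and pericytes. Counts below the expected free RNA were set to 0, which raises a fold change where it falls on saline mice. T or NK cells of saline mouse 2 held 6.08 CPM, with a free share of 3.34% and free Gfap at 434 CPM. Microglia of saline mouse 1 held 7.32 CPM, with 2.21% and 447 CPM. The larger values in T or NK cells and microglia are thus not read as a larger change. Beyond this subtraction, the part of free RNA was not tested. DESeq2 called Gfap in T or NK cells (adjusted p = 0.0014) and endothelial cells (0.028). Without the filter on low counts, edgeR called it in neutrophils, pericytes and T or NK cells (edgeR adjusted p = 1.3e-05, 0.0027 and 0.0059), and without saline mouse 1 in T or NK cells (adjusted p = 0.047). In neutrophils, where Gfap did not pass that filter, it ranged from 0 to 21.8 CPM (0 to 5 UMIs) in saline and from 24.8 to 158 CPM (3 to 121 UMIs) in ancrod mice. The share of all genes called without the filter is not given here. Oligodendrocyte precursor cells, next to astrocyte-like cells among the ranked classes, had a log2 fold change of −0.13 ± 0.52.

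**Figure D5:**
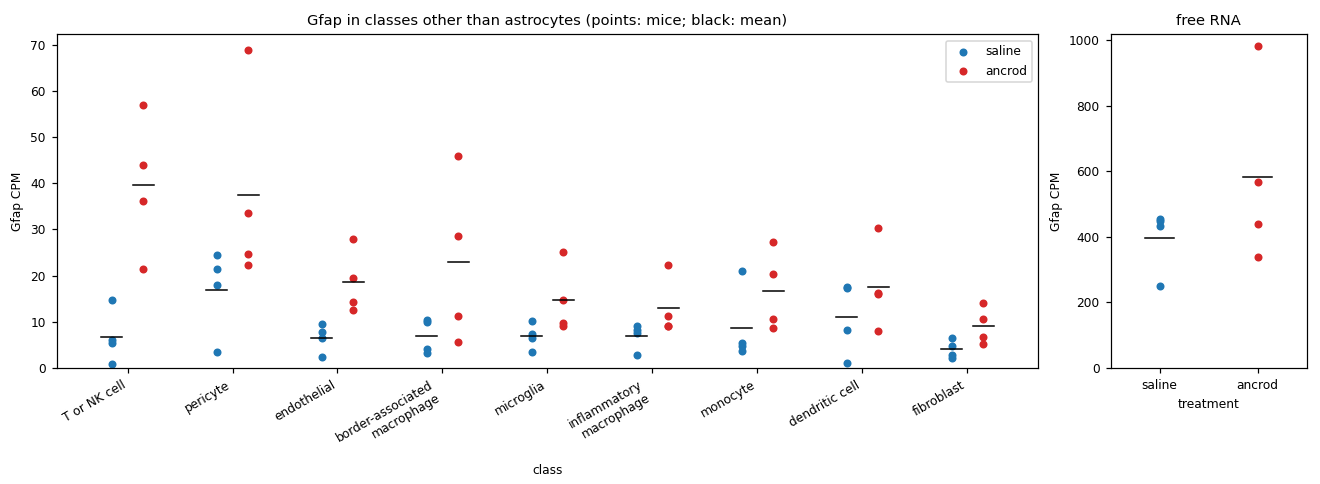
Gfap in 9 classes other than astrocyte-like and oligodendrocyte precursor cells (left, CPM by class) and in free RNA (right, CPM), with 1 point per mouse (blue saline, red ancrod) and black lines at the means. The groups do not overlap in T or NK cells and endothelial cells, and free RNA holds 248 to 981 CPM.

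Other genes of the same biology were read from lists by pathway, and in astrocyte-like cells no gene of any list was called. All 8 pan-reactive genes were tested and all had a log2 fold change above 0, with a median of 0.23 compared to −0.0049 over all genes, and 2 had an unadjusted p under 0.05. For this and the next lists, the shares over all genes were 48.7% above 0 and 3.71% at such a p. The 2 genes were Cp, which encodes the copper carrier ceruloplasmin (1.02 ± 0.42, 13.9 to 51.8 CPM in saline and 28.2 to 115 CPM in ancrod mice), and Cxcl10, an interferon-induced chemokine (1.21 ± 0.54, 28.9 to 191 CPM and 127 to 619 CPM). Neither was particular to astrocytes, since all other named cells held 117 CPM of Cp and 197 CPM of Cxcl10. Cp, Cxcl10 and other genes of this list also named the reactive cells, so the list is not separate from that naming.

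Of 12 genes of the inflammation type of reactivity, 9 were above 0 (median 0.19), and the smallest p-values were those of Amigo2 (−0.32 ± 0.21) and Gbp2 (0.38 ± 0.27). Of 10 tested genes of the ischemia type (11 listed), 8 were above 0 (median 0.14), led by S100a10 (0.32 ± 0.18) and Ptx3 (0.71 ± 0.42). Both of these were far higher in reactive than in homeostatic cells, S100a10 at 602 compared to 104 CPM and Ptx3 at 72.1 compared to 7.94 CPM. S100a10 is a reactive marker used for naming, and Ptx3 is not.

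In the STAT3 pathway, 15 of 17 genes were tested, 9 were above 0 (median 0.02), and 2 had an unadjusted p under 0.05 (3.71% of all genes). Both encode cytokines that act through STAT3, Il6 (1.73 ± 0.65, 0.739 to 7.23 CPM in saline and 3.44 to 12.1 CPM in ancrod mice) and Lif (1.19 ± 0.53, 3.83 to 9.24 CPM and 4.88 to 28.3 CPM). All other named cells held 7.22 CPM of Il6 and 2.53 CPM of Lif. Among partners of the filaments, 3 of 7 were tested and 1 was above 0 (median −0.21), with Plec, the cross-linker plectin, at −0.21 ± 0.15 and Lmna, lamin A/C, at 0.29 ± 0.21. The lipocalin 2 receptors Slc22a17 (0.06 ± 0.13) and Lrp2 (0.33 ± 1.03) were both tested, and Slc22a17 was lower in reactive (76.0 CPM) than in homeostatic cells (154 CPM). The Steap family (3 tested, 2 above 0) was given by Steap1 (0.07 ± 0.43) and Steap3 (0.01 ± 0.13). Of the Serpina3 family, 8 of 9 genes were in the matrices and none passed the filter on low counts, so that Serpina3n was the only gene of the family tested in astrocyte-like cells. The adjusted p of every gene named here was 0.9994.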

How the data were processed

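Single-cell RNA-seq libraries (10x Genomics 3′) were made from unsorted cells of 8 mice, and the authors deposited 1 matrix of raw UMI counts per mouse, from Cell Ranger 7.1.0 with STAR on GRCm39 (mm39), with exonic and intronic reads counted. The labels give female C57Bl/6J mice, the study's methods C57BL/6N mice of both sexes, which was not settled here. Free RNA was not removed before the main tests.

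Droplets with at least 2000 UMIs and under 20% mitochondrial UMIs were kept (46216), and the 2144 with the highest doublet scores (0.8% per 1000 cells) were removed. The 8 genes were left out of clustering (3000 variable genes, 20 components, 20 neighbours, Leiden resolution 2, within astrocytes 1). Clusters were named from marker lists with thresholds set after clusters were seen, so class names are rebuilt ones. Sub-clusters led by microglial or endothelial genes were left out of the astrocyte-like class. The 8 genes, the gene lists and the marker lists were chosen with earlier results of these data known. Of the listed genes, 5 were not analysed here.

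UMIs were summed per mouse and class and tested with edgeR 4.0.16 (quasi-likelihood, TMM, filterByExpr, Benjamini-Hochberg threshold 0.05) under R 4.3.3 in classes with at least 10 cells in at least 3 mice per group. DESeq2 1.42.0, no filter on low counts, other size factors, a batch term, a replicate block, cell filters, resolution, thinning to 2000 UMIs and leaving out each mouse were alternatives, and the fit was tested on simulated data. Subtraction of free RNA in the other classes and leaving out homeostatic sub-clusters 7 or 7 and 11 were chosen after seeing the data. The SE of an edgeR log2 fold change was its absolute value divided by the square root of the quasi-likelihood F statistic. Shares and log2(CPM + 1) differences were tested by exact permutation or sign-flip tests over mice. Depth was 97861434 to 142139441 UMIs per library, and precision is that of 8 mice. In each list the 2 genes of smallest unadjusted p were named, and any gene that passed. The value of 1 marker gene is not reported here.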

Additional observations from a re-analysis of the deposited data

Results flagged for a closer look

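In groups of 4 mice, 79 sets of values of the 8 genes were searched for a mouse far from the other 3 by Dixon's criterion, and 5 were found, where chance gives about 1 in 20. Vim in astrocyte-like cells of saline mice had a low value of 2207 CPM in mouse 1, with the others at 3860 to 4060 CPM. Lcn2 in homeostatic cells of saline mice had a high value of 137.1 CPM in mouse 4, with the others at 7.541 to 23.85 CPM. Lcn2 in neutrophils of ancrod mice had a high value of 4724 CPM in mouse 1, with the others at 1116 to 1465 CPM. Stat3 in T or NK cells of ancrod mice had a high value of 766.6 CPM, with the others at 519.5 to 555.5 CPM. Steap4 in fibroblasts of ancrod mice had a low value of 18.99 CPM in mouse 4, with the others at 64.32 to 70.53 CPM.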

How the results depend on the processing

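Of single-gene values, 371 kept their direction and side of the threshold in other settings and 274 when 1 mouse was left out, while 29 and 36 reversed and 1 lost its call. No member was called in astrocyte-like, homeostatic or reactive cells under any setting. Over all genes, edgeR called 0, 1, 0 and 18 and DESeq2 1, 5, 9 and 277 in astrocyte-like, homeostatic, reactive and other classes, and in the other classes Gfap was called 2 times by DESeq2 and 3 times without the filter on low counts. With clustering resolution 1 the reactive share differed by −0.018 points. Log2 fold changes in astrocyte-like cells reversed for Serpina3n with DESeq2 (−0.0013), with 4000 UMIs (−0.010), with resolution 1 (−0.027) and under 10% mitochondrial UMIs (−0.036), where Gfap was −0.14 and Vim −0.081. Vim also reversed with a batch term (−0.020) and with doublets kept (−0.061), and Lcn2 with a batch term (0.0080) and thinning (0.47). Thinning also moved Stat3 to 0.074, and in reactive cells Gfap to 0.068 and Lcn2 to 0.045. Vim in reactive cells was 0.0021 at resolution 1, and Cd109 in homeostatic cells −0.16 with 4000 UMIs and −0.25 under 10% mitochondrial UMIs. The level of Steap4 in astrocyte-like minus other cells reversed under 10% mitochondrial UMIs (0.21) and with doublets kept (0.83). The ancrod effect in reactive minus homeostatic cells reversed under 10% mitochondrial UMIs for Nes (0.015) and Lcn2 (0.37), and for Lcn2 with doublets kept (0.43) and at resolution 1 (0.013). Leaving out sub-cluster 7, or 7 and 11, reversed Gfap (−0.034 and −0.018), Serpina3n (−0.048 and −0.095) and Lcn2 (0.098 and 0.039) in astrocyte-like cells. In each of these the cause was not tested.

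With the replicate number as a block, 0 genes were called (324 at an unadjusted p under 0.05) and Vim was at −0.056. Deviations of same-numbered mice correlated at −0.43, 0.035, 0.054 and −0.077. No pairing by number showed in these values, which are too few to exclude one. Mouse 4 of each group shares batch 2.

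With 1 mouse left out, 0 to 0 genes and members were called in astrocyte-like cells, 7 to 7 members differed from other cells, and 0 to 1 member was called in the other classes (Gfap in T or NK cells, without saline mouse 1). The reactive share differed by −3.17 to 7.38 points and the astrocyte-like share by 1.99 to 6.44 points. In astrocyte-like cells the log2 fold changes ran from −0.065 to 0.11 (Gfap), −0.26 to 0.16 (Vim), −0.23 to 0.21 (Serpina3n), −0.75 to 0.38 (Lcn2), −0.22 to 0.017 (Stat3) and −0.16 to 0.50 (Cd109). In homeostatic cells they ran from −0.012 to 0.46 (Vim), −0.10 to 0.52 (Serpina3n), −0.43 to 2.15 (Lcn2) and −0.35 to 0.32 (Cd109). In reactive cells they ran from −0.11 to 0.045 (Vim), −0.44 to 0.0025 (Serpina3n), −0.50 to 0.093 (Lcn2) and −0.15 to 1.01 (Steap4). Steap4 in astrocyte-like minus other cells ran from −0.23 to 0.14, and the ancrod effect in reactive minus homeostatic cells from −1.03 to 0.31 (Lcn2), −0.53 to 0.032 (Nes), −0.41 to 0.0099 (Vim) and −0.0091 to 0.41 (Cd109). Thinning was not run for the shares. Steap4, at a low level in homeostatic cells (4.06 CPM, compared to 21.6 CPM in reactive cells), did not pass the filter on low counts there.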

Other observations

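Ependymal-like cells, which line the ventricles and express Gfap and Vim, reached 10 cells in only 2 mice and were left out of the class order. In saline mouse 4 (48 cells) and ancrod mouse 2 (13 cells) they held 903 and 654 CPM of Gfap, 203 and 120 CPM of Cd109, 74.2 and 176 CPM of Steap4, 786 and 506 CPM of Stat3, 131 and 35.8 CPM of Nes, 2578 and 2061 CPM of Vim, 675 and 81.7 CPM of Serpina3n, and 2749 and 7.66 CPM of Lcn2. Their Gfap and Cd109 in both mice exceeded the means of all other classes outside astrocytes, and Lcn2 and Serpina3n differed most between these mice. Erythrocyte markers in reactive cells, 3 of 3 detected, summed to 0 to 0.788 CPM in saline and 1.10 to 47.9 CPM in ancrod mice without overlap, and their part in any value of the reactive cells was not tested. All lists other than these and the fibroblast markers overlapped in reactive cells.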
